A study of Homo sapiens with 97 samples.

Results

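The 40 transcripts described here encode SNAREs and other proteins that are held in a membrane by a hydrophobic segment close to their C-terminus. They were chosen by name from a list of gene symbols, looked up in every count table, and made up 40 of 60675 gene identifiers. The deposited symbol column gave 39 of them, and SEC22B was found by its identifier in GENCODE 29. By role, 11 are SNAREs of the plasma membrane and endosomes, 10 are SNAREs of the Golgi and of ER-to-Golgi traffic, 13 are SNAREs or resident proteins of the endoplasmic reticulum (ER), and 6 are anchored in the outer mitochondrial membrane.

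A tail-anchored protein has its only membrane segment near its end, so that the segment is still inside the ribosome when the stop codon is reached. Such proteins are released into the cytosol and inserted afterwards, through the GET pathway, the ER membrane complex or other routes. Proteins with a signal peptide or an early membrane segment are instead recognised by the signal recognition particle while they are being made, and their ribosomes are brought to the ER membrane with the mRNA attached. SNAREs are the coiled-coil proteins that pull a vesicle and its target membrane together for fusion, with syntaxins mostly on the target side and VAMPs mostly on the vesicle side.

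The study mapped RNA in HEK 293T cells, a human embryonic kidney line, by APEX-seq. In each line APEX2, an engineered peroxidase, was fused to a targeting sequence and stably expressed, and biotin-phenol with hydrogen peroxide tagged RNA near it. Labelled libraries came from tagged and enriched RNA, and unlabelled libraries came from cells that carried the same construct and biotin-phenol but received no hydrogen peroxide. Each group had 2 libraries, called biological replicates by the submitters, and 1 technical repeat of a MITO library was left out. The p-values measure the spread between these libraries. The constructs were ERM at the cytosolic face of the ER membrane, OMM on the outer mitochondrial membrane, NES in the cytosol, KDEL in the ER lumen, MITO in the mitochondrial matrix, NLS in the nucleus, NIK in the nucleolus, LMA at the nuclear lamina and NucPore at the nuclear pore. OMM and NES cells were also labelled in cycloheximide or puromycin, inhibitors of translation, in CCCP, a mitochondrial uncoupler, or in nocodazole, which depolymerises microtubules. Nuclear and cytosol fractions of HEK 293T cells were sequenced without labelling, and total RNA without poly(A) selection was made for MITO.

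Libraries of the 9 constructs held 9.33 to 76.7 M counts on genes (M for 1000000), drug libraries 22.8 to 55.8 M, nocodazole libraries 15.5 to 34.0 M and fractions 35.0 to 45.0 M. Landmark transcripts were higher in labelled libraries at ERM, OMM, MITO and NLS, with a log2 fold change of 2.76 for SCD at ERM, 3.32 for ALDH18A1 at OMM, 5.39 for MT-ND5 at MITO and 3.65 for MALAT1 at NLS. None of the 7 landmark genes tested was called at KDEL or NucPore, where 0% of all genes were called by edgeR. Some libraries had no count for part of the genes that averaged at least 5 counts per 1000000 (CPM) over the table, where CPM is scaled by each library's total count and its TMM factor. This share was 4.9% in ERM labelled library 1 against 0.566% in ERM labelled library 2, 3.95% in OMM unlabelled library 2, 3.31% in NES unlabelled library 1 and 7.73% in unlabelled library 2 of OMM in cycloheximide.

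The coding sequences carried the feature that names the group. In 39 of the 40 proteins, as translated from the GENCODE 29 transcripts, the most hydrophobic stretch of 19 residues reached a mean Kyte-Doolittle hydropathy of 1.6 and ended within 60 residues of the C-terminus, with a median of 5 residues after it. The exception was YKT6, a SNARE known to be held by lipid groups in place of a membrane segment, whose best window reached 0.82. EMC6, with 43 residues after its window, is known to cross the membrane more than once, and STX17 had 35. Counted from the first window to pass, a median of 10 residues was left in the members (range 2 to 55). In 46 secretory and membrane proteins known to be made on the ER, taken as the co-translational contrast, 42 had a passing window and a median of 403.5 residues was left after the first (range 24 to 1357). These 46 genes were chosen with earlier results of these data known, and they include the landmark genes SCD and TFRC. Their counts and medians below therefore describe a chosen list and are no independent test. The median share of codons with T in the second position, the mark of codons for hydrophobic residues, was 73.7% in the members' windows against 29.6% over their coding sequences. The following coding stretches of the GRCh38 genome show the segment in members that the results turn on and in a pair of co-translational genes. Capitals mark the 19 codons of the window, and a lower-case end with a stop codon shows how little is left to translate.
STX6, trans-Golgi syntaxin, chr1:180976570-180976644, minus strand: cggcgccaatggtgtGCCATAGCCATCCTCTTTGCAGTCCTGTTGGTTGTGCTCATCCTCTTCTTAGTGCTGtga
STX16, trans-Golgi syntaxin, chr20:58676202-58676291, plus strand: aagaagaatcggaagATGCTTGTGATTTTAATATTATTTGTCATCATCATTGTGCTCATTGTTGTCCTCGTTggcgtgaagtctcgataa
VAMP8, endosomal SNARE, chr2:85581624-85581716, plus strand: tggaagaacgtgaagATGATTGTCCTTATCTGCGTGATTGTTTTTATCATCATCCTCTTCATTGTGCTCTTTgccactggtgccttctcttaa
VAPB, ER contact-site protein, chr20:58444158-58444235, plus strand: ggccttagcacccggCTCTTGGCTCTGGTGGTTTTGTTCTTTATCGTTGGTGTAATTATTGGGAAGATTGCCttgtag
CYB5A, ER cytochrome b5, chr18:74253584-74253664, minus strand: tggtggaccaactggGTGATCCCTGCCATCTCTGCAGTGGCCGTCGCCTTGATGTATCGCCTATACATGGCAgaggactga
CYB5B, mitochondrial cytochrome b5, read across an intron, chr16:69459105-69462520, plus strand: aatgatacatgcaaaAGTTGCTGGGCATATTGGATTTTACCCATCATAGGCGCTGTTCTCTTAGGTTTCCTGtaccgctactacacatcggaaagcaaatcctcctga
EMC6, ER membrane complex subunit, chr17:3669276-3669362, plus strand: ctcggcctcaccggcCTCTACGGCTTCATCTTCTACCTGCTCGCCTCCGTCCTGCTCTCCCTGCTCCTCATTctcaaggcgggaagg
YKT6, lipid-anchored SNARE, read across an intron, chr7:44201160-44204574, plus strand: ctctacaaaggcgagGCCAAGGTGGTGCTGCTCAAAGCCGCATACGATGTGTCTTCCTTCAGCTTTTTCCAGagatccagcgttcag
SCD, desaturase made on the ER, first window, chr10:100348244-100348330, plus strand: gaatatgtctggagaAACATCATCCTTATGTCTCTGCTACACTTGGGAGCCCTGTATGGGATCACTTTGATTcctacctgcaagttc
TFRC, transferrin receptor, first window, read across an intron, chr3:196074112-196075231, minus strand: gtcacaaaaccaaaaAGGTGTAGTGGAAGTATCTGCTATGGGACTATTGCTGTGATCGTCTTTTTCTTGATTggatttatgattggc
Of the members shown, STX6, STX16, VAMP8, VAPB, CYB5A and CYB5B ran into their stop codon shortly after the window, while the stretches of EMC6, YKT6, SCD and TFRC stop in the middle of the coding sequence.

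**Figure D1:**
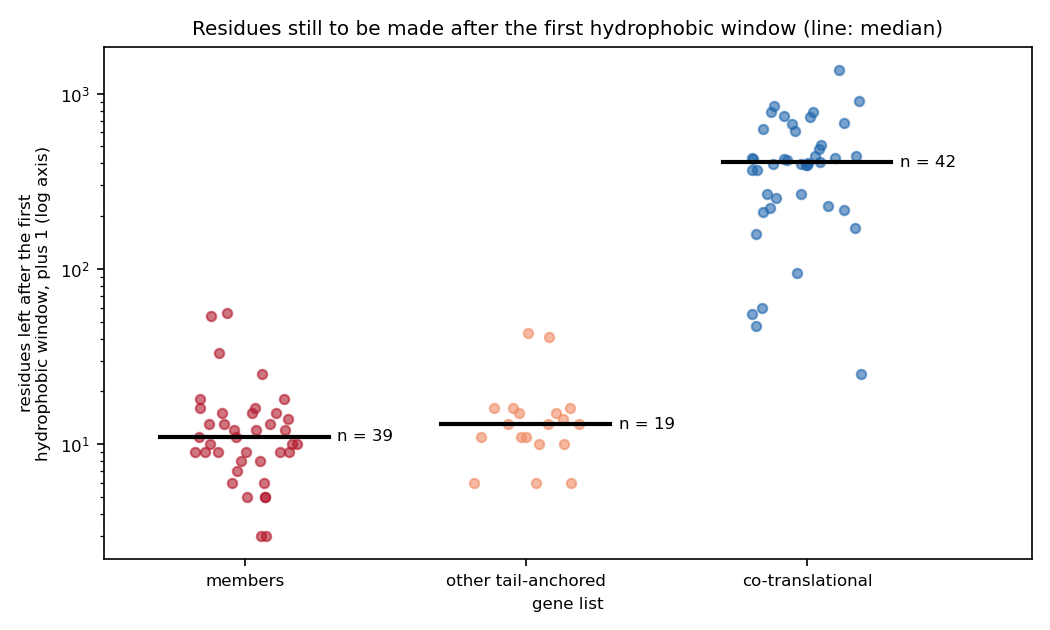
Residues left to translate after the first hydrophobic window of each protein, plus 1, on a log axis, with 1 point a protein and a line at the median. The 39 members with a window lie low (2 to 55 residues), near the 19 other tail-anchored proteins, and most of the 42 co-translational proteins lie far above them (24 to 1357 residues).

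Without labelling, the members were spread over a wide range of levels per length. Over the 18 unlabelled libraries of the 9 constructs, MCL1, an anti-apoptotic BCL2 relative, was highest at 64.65 ± 12.2 RPKM (counts per kilobase of exon, scaled as CPM, SD, n = 18). EMC6 at 44.8 ± 20.7 RPKM, VAMP3 at 43.8 ± 7.24 RPKM, VAMP7 at 38.0 ± 8.36 RPKM and YKT6 at 35.0 ± 7.14 RPKM followed. The SDs of these 4 overlapped, and they were not tested against each other. GOSR2, a Golgi SNARE, stood at 2.01 ± 0.384 RPKM, and VAMP5, a SNARE best known from muscle, was lowest at 0.120 ± 0.314 RPKM. VAMP5 passed the filter on low counts only in the table of the 9 constructs and where that table was fitted jointly with the drug libraries, and at ERM it had 0 CPM in both labelled libraries, against 0 and 0.635 CPM in the unlabelled libraries, too few counts for a fold change. The libraries came from whole cultures and their values are relative to each library's scaled total, so that fewer cells with a transcript and less of it per cell cannot be told apart.

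At the ER membrane the members as a group took nearly the same share of the RNA with labelling as without it. They made up 0.2801% and 0.2805% of the counts in the ERM labelled libraries, against 0.2674% and 0.2482% in the ERM unlabelled libraries. The 46 co-translational genes took 3.65% and 3.63% of the counts in the ERM labelled libraries, against 1.70% and 1.68% in the ERM unlabelled libraries. Both labelled libraries lay above both unlabelled ones for either list, by a narrow margin for the members and by a wide one for the co-translational genes. With edgeR's quasi-likelihood test and Benjamini-Hochberg adjustment over all genes, called at an adjusted p under 0.05, 2 of 40 members were higher and 6 were lower, against 12.9% of all 22680 genes tested (5.26% higher and 7.6% lower). Over genes of at least 5 CPM 10.1% were higher and 13.8% lower. The members' median log2 fold change was 0.02 (quartiles -0.88 and 0.49), the median of all genes was 0, and 26 of the 46 co-translational genes were higher and 1 lower with a median of 0.84. Of the co-translational examples shown above, SCD, the enzyme that puts a double bond into fatty acids, had a log2 fold change of 2.76 ± 0.142 (SE) and TFRC, which takes up iron-loaded transferrin, one of 1.77 ± 0.186.

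**Figure D2:**
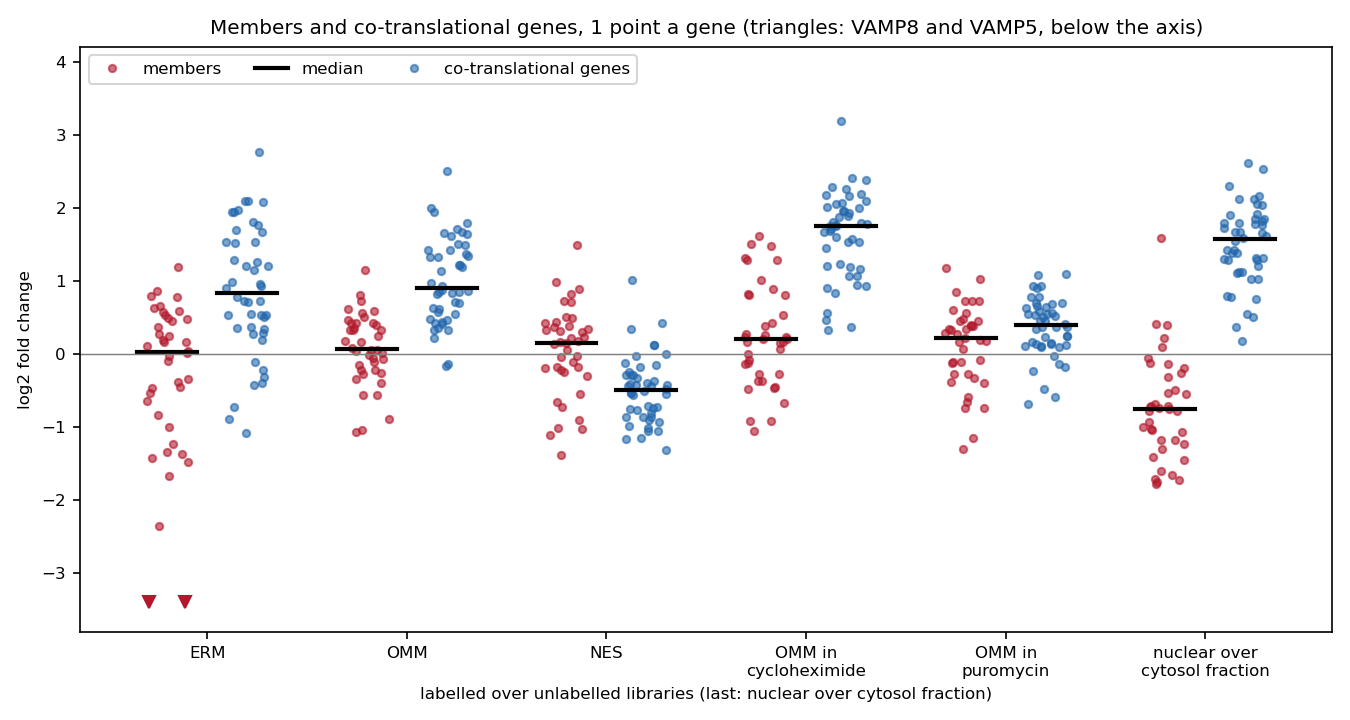
Log2 fold change of labelled over unlabelled libraries, and of nuclear over cytosol fractions, for each member (red) and each of the 46 co-translational genes (blue), with a bar at the median and triangles for VAMP8 and VAMP5 below the axis. The members' medians stay between 0.02 and 0.22 in the 5 labelling comparisons and lie at -0.75 in the fractions, where the co-translational median is 1.57.

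STX6 and VAPB were the members called higher at ERM. STX6, a trans-Golgi syntaxin, had 92.7 and 84.2 CPM in the ERM labelled libraries, against 39.7 and 37.9 CPM in the ERM unlabelled libraries, a log2 fold change of 1.19 ± 0.41 (SE, edgeR adjusted p = 0.0492). VAPB, an ER protein that ties the ER to other membranes, had 214.9 and 200.7 CPM in the ERM labelled libraries, against 119.6 and 121.5 CPM in the ERM unlabelled libraries (0.79 ± 0.25, edgeR adjusted p = 0.0279). For both, each labelled library lay above each unlabelled one, as in 18.4% of all genes. Both calls were lost when any of the 4 ERM libraries was left out, with adjusted p from 0.0811 to 0.243 for STX6 and from 0.0543 to 0.167 for VAPB.

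VAMP8, an endosomal SNARE that also serves the fusion of autophagosomes with lysosomes, was the member that stood furthest from zero. It had no count in either ERM labelled library, against 15.3 and 15.5 CPM in the ERM unlabelled libraries (488 and 292 counts). A floor of 3 counts in a library would lie 129.7-fold below the mean of the ERM unlabelled libraries. It is no lower bound on the change, because PCR reads are not independent molecules. VAMP8 was called lower (edgeR adjusted p = 0.0014), and the call held under all 10 alternative settings. VAMP8 had 12.4 and 14.6 CPM in the OMM labelled libraries and 8.84 and 9.12 CPM in the NES labelled libraries. Zero counts of VAMP8 were not limited to ERM, since NIK labelled library 1 and NES unlabelled library 1 had none either. Counts of 0 in ERM labelled library 1 stand beside its 4.9% of well-expressed genes at 0, and whether the VAMP8 zeros share their source was not tested.

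Among the ER residents, 2 of 13 were lower at ERM, and the subgroup's median log2 fold change was -0.38. That count lies near the share of lower genes among those of at least 5 CPM, 13.8%. CYB5A, the ER form of cytochrome b5, had 8.44 and 16.0 CPM in the ERM labelled libraries, against 40.5 and 37.0 CPM in the ERM unlabelled libraries (-1.66 ± 0.47, edgeR adjusted p = 0.0141). EMC6, a subunit of the complex that inserts some tail anchors, had 6.86 and 20.0 CPM in the ERM labelled libraries, against 34.9 and 39.8 CPM in the ERM unlabelled libraries (-1.47 ± 0.47, edgeR adjusted p = 0.0318). The groups did not overlap for either gene, as for 23.6% of all genes in this direction, and labelled library 1 was the lower of its pair for both. CYB5A also had negative log2 fold changes at OMM (-1.07, edgeR adjusted p = 0.261) and at NES (-1.11, 0.26), neither of them called. About 74.3% of the exon bases of EMC6 lie opposite another gene on the other strand, and the strand setting of the authors' counting is not given in the sources used here.

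Of the 11 SNAREs of the plasma membrane and endosomes, 3 were lower at ERM, VAMP8, STX4 and VAMP2, beside 13.8% of genes of at least 5 CPM. STX4, a plasma membrane syntaxin, had 9.16 and 14.9 CPM in the ERM labelled libraries, against 23.4 and 41.1 CPM in the ERM unlabelled libraries (-1.42 ± 0.37, edgeR adjusted p = 0.00703). VAMP2, synaptobrevin of regulated secretion, had 12.4 and 44.4 CPM in the ERM labelled libraries, against 70.8 and 75.8 CPM in the ERM unlabelled libraries (-1.37 ± 0.40, edgeR adjusted p = 0.0178). BNIP3, a mitophagy receptor of the outer mitochondrial membrane, had 13.9 and 22.4 CPM in the ERM labelled libraries, against 42.5 and 42.9 CPM in the ERM unlabelled libraries (-1.23 ± 0.38, edgeR adjusted p = 0.0234). For each, both labelled libraries lay below both unlabelled ones, as in 23.6% of all genes, and labelled library 1 lay lowest. Without that library VAMP8 was the only member called, and log2 fold changes were -1.28 for CYB5A (adjusted p = 0.218), -0.90 for EMC6 (0.4), -1.11 for STX4 (0.145), -0.72 for VAMP2 (0.389) and -0.93 for BNIP3 (0.275). The co-translational count was 23 to 24 higher of 46 with any 1 ERM library left out.

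The Golgi SNAREs had the highest median of the 4 subgroups at ERM, 0.55, with 7 of 10 positive and STX6 called. The outer mitochondrial membrane proteins had a median of 0.20, with 5 of 6 positive and BNIP3 called lower. STX8, a late endosomal syntaxin, shows how far the ERM labelled libraries could part: it had 0 and 12.0 CPM in them, against 27.8 and 33.4 CPM in the ERM unlabelled libraries, and was not called (-2.35 ± 0.98, edgeR adjusted p = 0.126). Across 37 members, leaving out VAMP5, VAMP8 and YKT6, the ERM log2 fold change had a Spearman correlation of 0.62 with transcript length and of 0.59 with 3′UTR length. It had one of 0.15 with protein length and of -0.10 with the residues after the window. These correlations are across genes of the same 4 libraries, and genes are not independent replicates. For summed exon length the correlation was 0.35 over 38 members (without VAMP5 and VAMP8), 0.50 over the 46 co-translational genes and 0.44 over 11806 well-expressed genes.

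**Figure D3:**
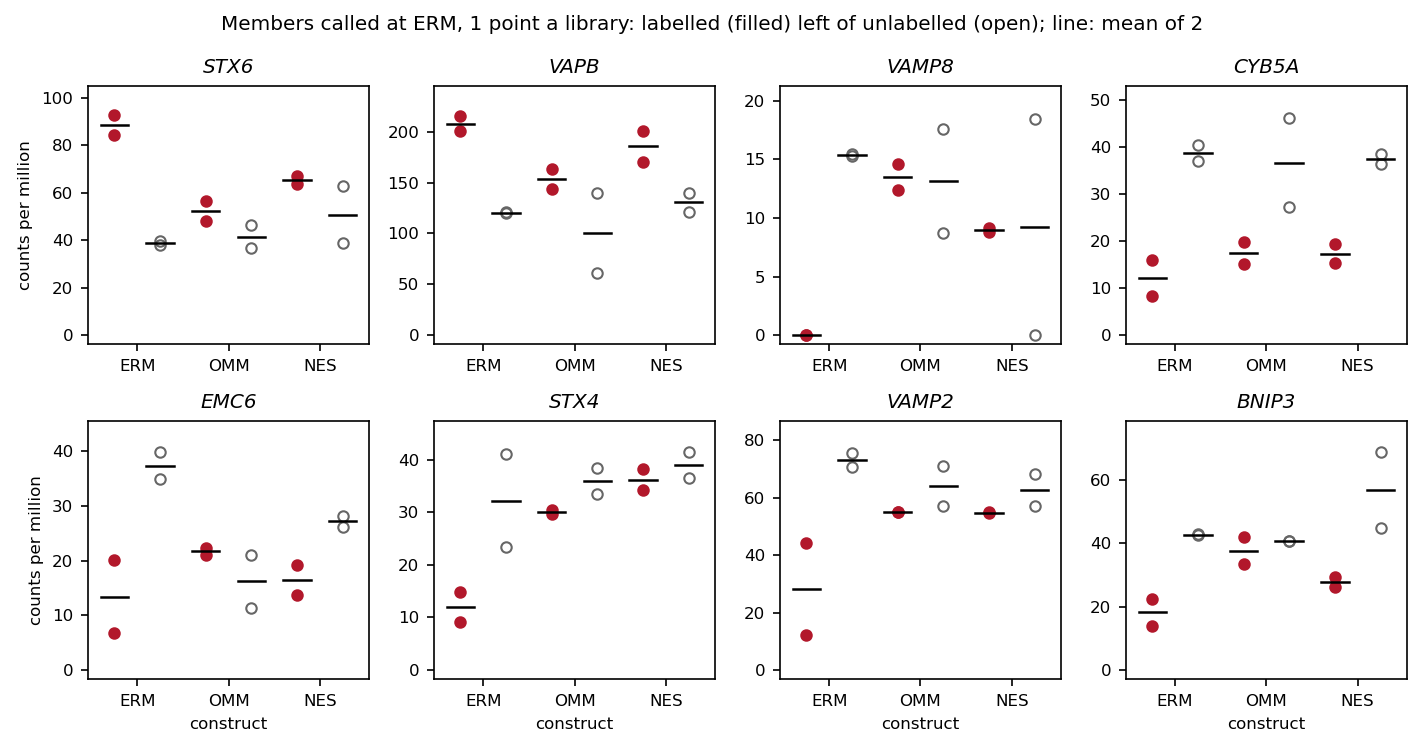
CPM of the 8 members called at ERM in the ERM, OMM and NES libraries, with 1 point a library, labelled (filled) left of unlabelled (open), and a line at the mean of 2. STX6 and VAPB lie higher in the ERM labelled libraries, VAMP8 is at 0 there, and the other 5 lie lower, with labelled library 1 the lower filled point of each.

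Set directly against labelling in the cytosol, ERM labelling called few members as different. In the comparison of ERM with NES, each relative to its own unlabelled libraries, the members' median difference in log2 fold change was -0.20 (quartiles -0.80 and 0.29). The median was -0.45 over all genes and -0.16 over genes of at least 5 CPM. By edgeR 5 of 40 members had an unadjusted p under 0.05, as did 3607 of 22680 genes. Only 1 member was called, lower, against 3.84% of all genes (2.15% higher and 1.69% lower). That member was VAMP8, whose call was lost without either ERM labelled library (adjusted p = 0.102 and 0.0601) and with only the libraries of the comparison (0.234). In the same comparison 31 of 46 co-translational genes were higher and none was lower by edgeR's quasi-likelihood test, with a median of 1.35, and 20 to 29 were higher with any 1 library left out, 20 of them without NES labelled library 2. STX6 differed by 0.82 (edgeR adjusted p = 0.545) and VAPB by 0.28 (0.901), so that neither of the members higher at ERM was called as different from NES. ERM against OMM likewise called VAMP8 alone, against 1.78% of all genes, and that call was lost in 7 of 13 alternative settings, each of them with 1 of the 8 libraries left out (adjusted p from 0.0525 to 0.179).

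At the outer mitochondrial membrane 1 of 40 members was called higher and none lower by edgeR's quasi-likelihood test, against 4.99% of all genes (3% higher and 1.98% lower), with 4 members at an unadjusted p under 0.05 and 1 called by DESeq2. The members took 0.263% and 0.253% of the counts in the OMM labelled libraries, against 0.241% and 0.239% in the OMM unlabelled libraries. The member called was CYB5B, the mitochondrial form of cytochrome b5, with 165.7 and 195.9 CPM in the OMM labelled libraries, against 100.9 and 118.2 CPM in the OMM unlabelled libraries (0.72 ± 0.21, edgeR adjusted p = 0.0376). Its labelled libraries lay above its unlabelled ones, and the call was lost when any OMM library was left out, with log2 fold changes from 0.57 to 0.84. About 35.1% of its exon bases are shared with another gene on the same strand. Over all genes at OMM, 24.2% had both labelled libraries above both unlabelled ones. The other 5 proteins of the outer mitochondrial membrane, among them MCL1, BAK1 and BCL2L1 of the BCL2 family, were not called at OMM, and the subgroup's median was 0.05. The co-translational genes, with 29 of 46 higher and a median of 0.91, took 3.55% and 3.57% of the counts in the OMM labelled libraries, against 1.79% and 1.61% in the OMM unlabelled libraries. Their count ran from 17 higher without OMM unlabelled library 2, and 19 and 20 without OMM labelled library 1 and 2, to 25 without OMM unlabelled library 1. Between OMM and NES no member differed by edgeR's quasi-likelihood test (3 at an unadjusted p under 0.05, 0 by DESeq2), against 1.72% of all genes, while 31 of 46 co-translational genes were higher, or 18 to 32 with any 1 library left out, 18 of them without NES labelled library 2.

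In the cytosol the members' share of the RNA was 0.299% and 0.321% in the NES labelled libraries, against 0.284% and 0.251% in the NES unlabelled libraries. The co-translational genes moved the other way there, with 1.33% and 1.195% of the counts in the NES labelled libraries, against 1.58% and 1.71% in the NES unlabelled libraries. Among the members 1 of 40 was called, lower, against 3.88% of all genes (1.38% higher and 2.5% lower), and their median log2 fold change was 0.15, beside a median of 0.18 over all genes. Of the co-translational genes 1 was higher and 14 were lower, with a median of -0.49. The count lower was 1 without NES labelled library 2, 7 without NES unlabelled library 1, and 11 and 13 without the other two libraries. Over all genes at NES, 17.1% had both labelled libraries below both unlabelled ones. The member called was SERP1, a small protein of the ER translocon, with 72.8 and 76.4 CPM in the NES labelled libraries, against 173.0 and 104.9 CPM in the NES unlabelled libraries (-0.90 ± 0.23, edgeR adjusted p = 0.0194). Its groups did not overlap, and without NES unlabelled library 1 its log2 fold change was -0.53 (adjusted p = 0.689). The call was also lost without either NES labelled library (0.206 and 0.24).

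**Figure D4:**
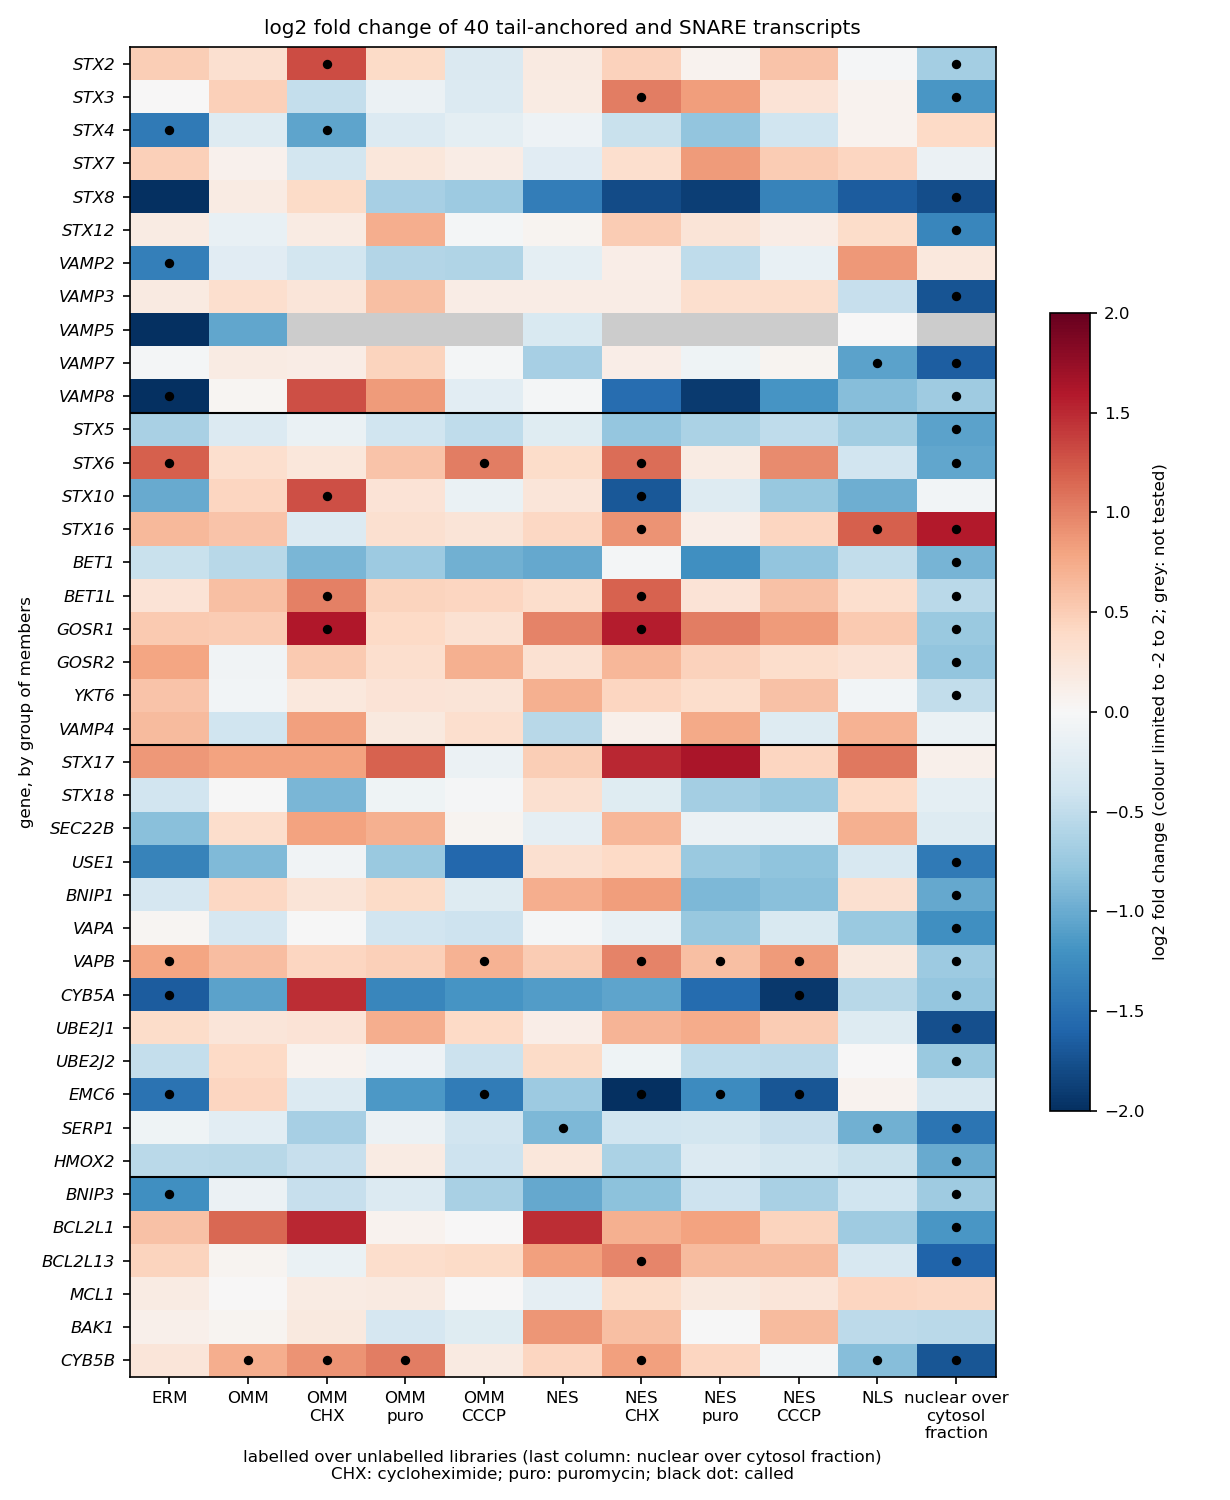
Log2 fold change of the 40 members (rows, by group of members) in 11 comparisons (columns), with red higher and blue lower in labelled libraries or in nuclear fractions, black dots on called values and grey where a member was not tested. CHX stands for cycloheximide and puro for puromycin, and most called values are in the fraction column, where 27 members are lower.

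In the nuclear constructs a few members departed from zero. At NLS 1 member was higher and 3 were lower of 40, against 5.2% of all genes. STX16, a trans-Golgi syntaxin, had 167.9 and 208.4 CPM in the NLS labelled libraries, against 100.8 and 64.3 CPM in the NLS unlabelled libraries (1.19 ± 0.29, edgeR adjusted p = 0.0104). VAMP7, a SNARE of late endosomes and lysosomes, had 60.7 and 58.6 CPM in the NLS labelled libraries, against 115.7 and 134.1 CPM in the NLS unlabelled libraries (-1.07 ± 0.26, edgeR adjusted p = 0.00825). SERP1 and CYB5B were the other members lower at NLS, with log2 fold changes of -0.97 and -0.85. In all 4 genes the labelled and unlabelled libraries did not overlap, which was common at NLS. Of all genes there, 37.8% had both labelled libraries above both unlabelled ones and 20.2% had both below. Without NLS labelled library 2 none of the 4 was called (edgeR adjusted p from 0.0912 to 0.256), and without any other NLS library 2 members were. At the lamina 1 member was higher and 1 lower, against 7.68% of all genes. STX16 had 227.1 and 197.9 CPM in the LMA labelled libraries, against 87.0 and 99.7 CPM in the LMA unlabelled libraries (1.19, edgeR adjusted p = 0.00756). EMC6 had 15.6 and 15.5 CPM in the LMA labelled libraries, against 78.1 and 55.7 CPM in the LMA unlabelled libraries (-2.11, edgeR adjusted p = 0.00323). Neither was called without LMA labelled library 1 (0.0892 for STX16 and 0.0654 for EMC6), STX16 was not without LMA unlabelled library 1 (0.106) and EMC6 was not without LMA labelled library 2 (0.0648). EMC6 was also the 1 member lower at NIK (-1.57, edgeR adjusted p = 0.0448), against 5.24% of all genes, a call lost in 8 of 9 alternative settings and whichever NIK library was left out (adjusted p from 0.0512 to 0.172). STX16 shares 28.4% of its exon bases with a readthrough gene on the same strand, and its counts are uncertain for that reason.

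The enclosed compartments and the pore called no member by edgeR's quasi-likelihood test. At KDEL 0 members had an unadjusted p under 0.05 and DESeq2 called 0, with 0% of all genes called by edgeR. At MITO 6 had an unadjusted p under 0.05 and DESeq2 called 1, with 1.05% of all genes called by edgeR, and in MITO total RNA these were 3, 1 and 0.63%. At NucPore 4 had an unadjusted p under 0.05 and DESeq2 called 0, with 0% of all genes called by edgeR. Of all 22680 genes, 46 had an unadjusted p under 0.05 at KDEL, 1853 at MITO and 1341 at NucPore. In MITO total RNA 1661 of 14911 genes did. DESeq2 called 0 genes at KDEL, 410 higher and 112 lower at MITO, 23 and 141 at NucPore, and 360 and 76 in MITO total RNA.

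In the fractions most members were lower in the nuclear libraries and nearly all co-translational genes were higher there. The members took 0.198% and 0.201% of the counts in the nuclear fractions, against 0.229% and 0.218% in the cytosol fractions. The co-translational genes took 2.56% and 2.54% in the nuclear fractions, against 0.601% and 0.617% in the cytosol fractions. At NLS, by contrast, they took 1.17% and 1.073% in the labelled libraries, against 1.575% and 1.564% in the unlabelled libraries. At LMA their shares were 1.028% and 1.269% in the labelled libraries, against 1.411% and 1.398% in the unlabelled libraries. Why the nuclear fraction and nuclear labelling differed for these genes was not tested. Of 39 members tested, 1 was higher and 27 were lower in the nuclear fraction, against 62% of all 19115 genes (34.2% higher and 27.8% lower), and the members' median log2 fold change was -0.75 (quartiles -1.199 and -0.29). The median over all genes was 0.11, and over genes of at least 5 CPM, of which 39% were lower, it was -0.26. Of the 46 co-translational genes 43 were higher and none was lower by edgeR, with a median of 1.57. The members' count ran from 20 to 30 with any 1 fraction library left out, and their median from -0.90 to -0.74.

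All 4 subgroups were lower in the nuclear fraction by their medians. Their counts stand beside 27.8% of all genes lower there, and 39% of genes of at least 5 CPM. Among the SNAREs of the plasma membrane and endosomes, 7 of 10 were lower and none higher by edgeR, with a median of -0.94. STX8 had 15.6 and 12.7 CPM in the nuclear fractions, against 44.1 and 53.3 CPM in the cytosol fractions (-1.78 ± 0.24, edgeR adjusted p = 4.59e-05). VAMP3, cellubrevin of recycling endosomes, had 58.4 and 49.6 CPM in the nuclear fractions, against 172.9 and 182.8 CPM in the cytosol fractions (-1.72 ± 0.18, edgeR adjusted p = 8.77e-06). VAMP7 had 56.7 and 42.7 CPM in the nuclear fractions, against 162.5 and 149.5 CPM in the cytosol fractions (-1.65 ± 0.19, edgeR adjusted p = 1.82e-05). In each of these the cytosol libraries stood far above the nuclear ones with no overlap, and 37.4% of all genes had no overlap in this direction. STX12, of recycling endosomes, and STX3, of the apical plasma membrane, followed at -1.31 and -1.17, while STX4, STX7 and VAMP2 were not called.

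The ER residents showed 9 of 13 lower, with a median of -0.77. UBE2J1, a ubiquitin-conjugating enzyme of ER-associated degradation, had 36.0 and 30.3 CPM in the nuclear fractions, against 124.0 and 98.9 CPM in the cytosol fractions (-1.75 ± 0.20, edgeR adjusted p = 1.61e-05). Its relative UBE2J2 was lower by less, at -0.74, and SERP1 at -1.46, USE1 at -1.41 and VAPA at -1.23 lay between them. CYB5A was also lower, at -0.77, while EMC6, STX17, STX18 and SEC22B were not called. SEC22B has near-identical copies in the genome, and its counts are uncertain for that reason.

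Of the outer mitochondrial membrane proteins 4 of 6 were lower in the nuclear fraction, with a median of -0.94. CYB5B had 49.6 and 42.8 CPM in the nuclear fractions, against 160.9 and 141.7 CPM in the cytosol fractions (-1.71 ± 0.18, edgeR adjusted p = 1.05e-05). BCL2L13, a mitophagy receptor, had 45.1 and 43.3 CPM in the nuclear fractions, against 100.6 and 166.3 CPM in the cytosol fractions (-1.595 ± 0.23, edgeR adjusted p = 7.57e-05). Both genes were apart in the fractions, although the cytosol libraries of BCL2L13 differed widely from each other. BCL2L1, a relative of MCL1, was also among the 4 lower, and 43% of its exon bases lie opposite another gene on the other strand. MCL1 and BAK1, which stand on opposite sides of apoptosis, were not called.

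Among the Golgi SNAREs 7 of 10 were lower, led by STX5 at -1.07 and STX6 at -1.05, and STX16 was the 1 member higher. STX16 had 137.8 and 160.0 CPM in the nuclear fractions, against 48.4 and 50.5 CPM in the cytosol fractions (1.59 ± 0.18, edgeR adjusted p = 1.46e-05). Its nuclear libraries lay well above its cytosol ones, in the same direction as at NLS and LMA. Transcript length had a Spearman correlation of 0.10 with the fraction log2 fold change over 37 members, beside 0.62 at ERM. For summed exon length the fraction correlation was 0.008 over 38 members, 0.22 over the 46 co-translational genes and 0.37 over 11365 well-expressed genes. All 4 fraction libraries had a count for every gene of at least 5 CPM.

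**Figure D5:**
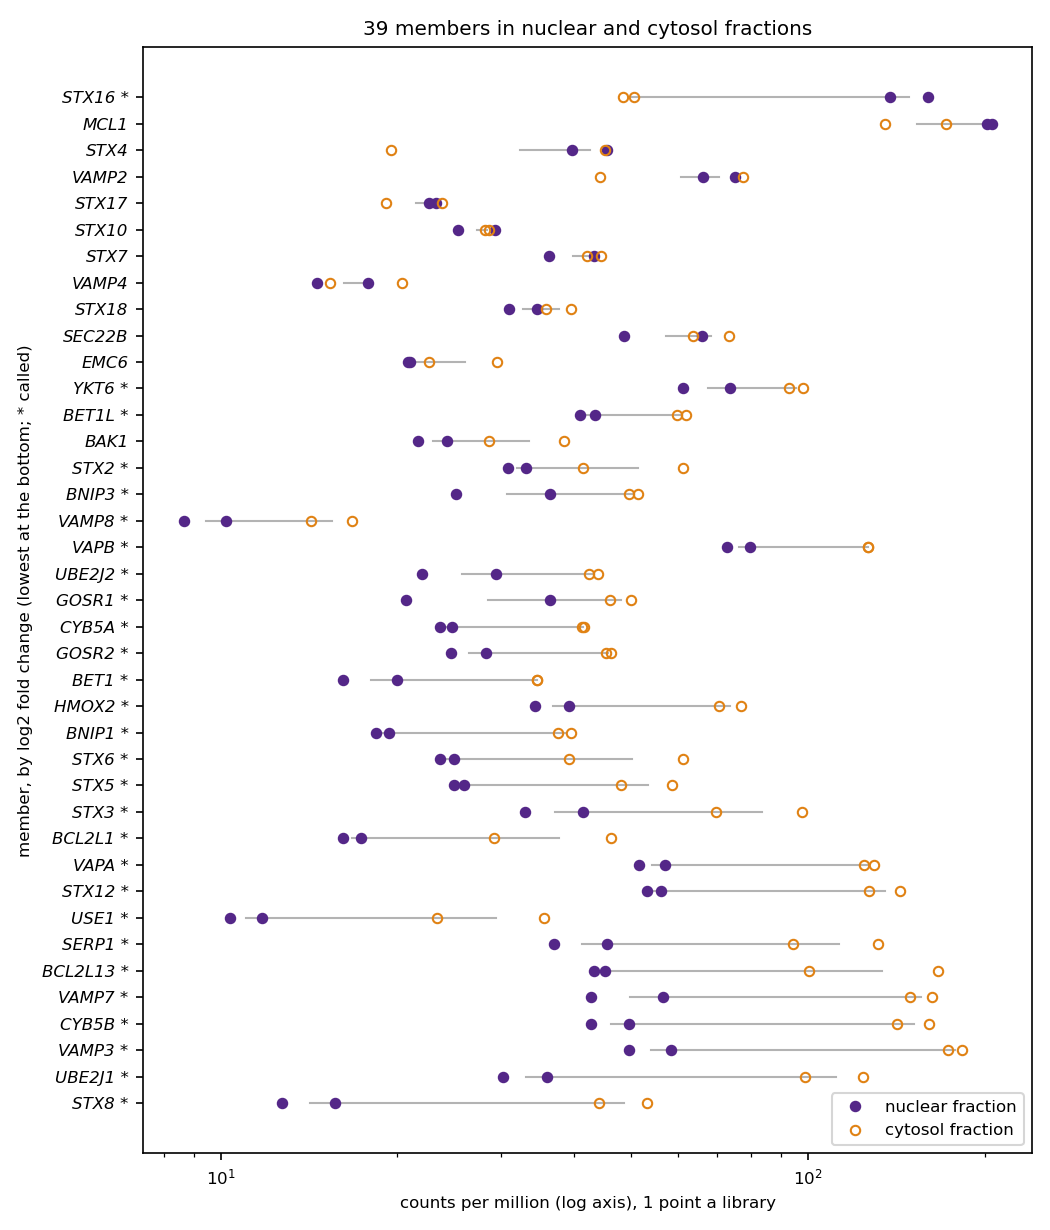
CPM of 39 members in the 2 nuclear (filled) and 2 cytosol (open) fractions on a log axis, ordered by log2 fold change with the lowest at the bottom, with a grey line that joins the 2 group means and a star on called members. STX16 at the top is the only starred member whose nuclear libraries lie to the right, and the 27 other starred members have theirs to the left.

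At OMM the co-translational genes differed between the translation inhibitors, and few members did. In cycloheximide, which holds ribosomes on the mRNA, the co-translational genes took 4.16% and 4.22% of the counts in the OMM labelled libraries, against 1.57% and 1.59% in the OMM unlabelled libraries, and 40 of 46 were higher. In puromycin, which releases the nascent chain, they took 1.70% and 1.75% in the OMM labelled libraries, against 1.32% and 1.33% in the OMM unlabelled libraries, and 10 of 46 were higher. Set against untreated OMM cells, 8 of the 46 were higher in cycloheximide and 6 were lower in puromycin. The untreated cells belong to another set of libraries, so that a drug effect cannot be told apart from a difference between the sets. The members took 0.217% and 0.229% of the counts in the OMM labelled libraries in cycloheximide, against 0.241% and 0.261% in the OMM unlabelled libraries. In puromycin they took 0.266% and 0.276% in the OMM labelled libraries, against 0.239% and 0.236% in the OMM unlabelled libraries. By these summed shares the members' labelled libraries lay below the unlabelled ones in cycloheximide and above them in puromycin. Single genes did not show this switch as a set, with a median log2 fold change of 0.20 in cycloheximide and 0.22 in puromycin. The median difference between the 2 drugs was -0.06, and the difference was tested gene by gene only.

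In cycloheximide at OMM 5 of 39 members were higher and 1 was lower, against 17.7% of all genes (12.4% higher and 5.35% lower), with a median of 0.20 beside 1.75 for the co-translational genes. GOSR1, a Golgi SNARE of retrograde and ER-to-Golgi traffic, had 73.2 and 81.6 CPM in the labelled libraries, against 16.2 and 34.5 CPM in the unlabelled libraries (1.61 ± 0.34, edgeR adjusted p = 0.00244). STX2, a plasma membrane syntaxin, had 80.9 and 83.0 CPM in the labelled libraries, against 41.9 and 24.2 CPM in the unlabelled libraries (1.31 ± 0.30, edgeR adjusted p = 0.00457). For both, the labelled libraries agreed closely and lay above the unlabelled ones, a separation seen in 36.5% of all genes. STX10, a trans-Golgi syntaxin, had 39.8 and 33.6 CPM in the labelled libraries, against 12.7 and 17.3 CPM in the unlabelled libraries (1.29 ± 0.33, edgeR adjusted p = 0.0107). STX4 was the member lower, with 30.5 and 25.5 CPM in the labelled libraries, against 57.3 and 58.8 CPM in the unlabelled libraries (-1.05 ± 0.28, edgeR adjusted p = 0.014). Neither gene's groups overlapped, and 14.3% of all genes lay below their unlabelled libraries without overlap. The call of STX10 was lost in 4 of 9 alternative settings and that of STX4 in 5, among them the replicate block (edgeR adjusted p = 0.0544 and 0.0872) and the fit without OMM labelled library 1 in cycloheximide (0.0768 and 0.0534). With only the libraries of the comparison 0 members were called. The unlabelled libraries of this group lacked counts for 3.08% and 7.73% of well-expressed genes, and the count ran from 4 without either labelled library to 14 without unlabelled library 1.

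In cycloheximide at NES 8 of 39 members were higher and 2 lower, against 15.7% of all genes (7.91% higher and 7.77% lower), with a median of 0.36. GOSR1 had 88.6 and 107.5 CPM in the labelled libraries, against 33.3 and 32.8 CPM in the unlabelled libraries (1.57 ± 0.34, edgeR adjusted p = 0.00302). BET1L, a SNARE of traffic within the Golgi, had 74.8 and 87.2 CPM in the labelled libraries, against 31.8 and 40.1 CPM in the unlabelled libraries (1.17 ± 0.23, edgeR adjusted p = 0.00129). Both were also higher at OMM in cycloheximide, BET1L at 1.01. About 14.8% of the exon bases of BET1L lie opposite another gene on the other strand, so that its counts are uncertain in part. EMC6 had 6.64 and 8.99 CPM in the NES labelled libraries in cycloheximide, against 54.4 and 34.0 CPM in the unlabelled libraries (-2.50 ± 0.38, edgeR adjusted p = 0.000103). STX10 had 19.5 and 18.7 CPM in the labelled libraries, against 52.1 and 71.5 CPM in the unlabelled libraries (-1.69 ± 0.34, edgeR adjusted p = 0.00138), in the opposite direction to its change at OMM. The co-translational genes had 4 of 46 higher and 24 lower at NES in cycloheximide, with a median of -0.70.

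The direct comparison of OMM with NES in cycloheximide called 3 members higher and 3 lower of 39, against 13.5% of all genes, beside 42 of 46 co-translational genes higher with a median of 2.20. STX10 differed most, by 2.98 ± 0.48 (edgeR adjusted p = 0.000212), followed by CYB5A at 2.53 ± 0.72 (0.0237) and EMC6 at 2.22 ± 0.52 (0.00595). STX10 kept its call in all 13 alternative settings, EMC6 lost it in 1 and CYB5A in 6. CYB5A had 26.9 and 28.6 CPM in the OMM labelled libraries in cycloheximide, against 15.01 and 4.91 CPM in the unlabelled libraries, and 10.7 and 13.4 CPM in the NES labelled libraries, against 13.7 and 36.1 CPM in the unlabelled libraries. Its labelled libraries lay above the unlabelled ones at OMM and below them at NES. STX3 at -1.49, STX16 at -1.17 and BCL2L13 at -1.11 were lower at OMM than at NES. Without unlabelled library 2 of OMM in cycloheximide these became -1.04 (adjusted p = 0.115), -0.55 (0.21) and -0.50 (0.248). The same comparison called no member in puromycin or in CCCP by edgeR's quasi-likelihood test (0 at an unadjusted p under 0.05 in each, 0 by DESeq2 in each), against 0.112% and 0.00933% of all genes. Of all 21441 genes, 1861 had an unadjusted p under 0.05 in puromycin and 1648 in CCCP. DESeq2 called 191 genes higher and 295 lower in puromycin, and 306 and 84 in CCCP.

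Cycloheximide set against puromycin at OMM called 1 of 39 members, higher, against 5.61% of all genes, beside 32 of 46 co-translational genes higher with a median of 1.31. That member was CYB5A, at 2.78 ± 0.72 (edgeR adjusted p = 0.027). Its call was lost in 7 of 13 alternative settings, with adjusted p from 0.0579 to 0.137, and the members' count ran from 0 without either labelled library of cycloheximide or any library of puromycin to 9 without unlabelled library 1 of cycloheximide and 2 without unlabelled library 2. In puromycin CYB5A had 18.1 and 19.8 CPM in the OMM labelled libraries, against 50.0 and 43.2 CPM in the unlabelled libraries. Its labelled libraries thus lay above the unlabelled ones in cycloheximide and below them in puromycin, but neither change was called on its own (edgeR adjusted p = 0.0534 and 0.315). The unlabelled libraries of the 2 drugs also lay apart for this gene. At NES the same comparison called 0 of 39 members by edgeR (4 at an unadjusted p under 0.05, 2 by DESeq2), against 0.163% of all genes, with a median of 0.34. Of all 21441 genes, 2466 had an unadjusted p under 0.05 there, and DESeq2 called 335 higher and 473 lower.

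Puromycin and CCCP left few members called. In puromycin 1 of 39 was higher at OMM, against 2.13% of all genes: CYB5B, with 217.4 and 218.5 CPM in the labelled libraries, against 97.7 and 117.2 CPM in the unlabelled libraries (1.02 ± 0.23, edgeR adjusted p = 0.0205). Its call was lost whichever of the 4 libraries was left out, with adjusted p from 0.106 to 0.291. In CCCP 2 were higher and 1 lower at OMM, against 6.84% of all genes. STX6 had 59.2 and 57.4 CPM in the OMM labelled libraries in CCCP, against 33.8 and 23.3 CPM in the unlabelled libraries (1.03 ± 0.29, edgeR adjusted p = 0.04). In both genes the labelled libraries lay above the unlabelled ones, as in 32.1% of all genes at OMM in puromycin and 32% in CCCP. The call of STX6 was lost in 6 of 9 alternative settings. At NES 1 was higher and 1 lower in puromycin, against 7.82% of all genes, and 1 was higher and 2 lower in CCCP, against 8.36% of all genes. EMC6 and CYB5A were the members lower in CCCP, CYB5A with 13.4 and 12.9 CPM in the NES labelled libraries, against 59.6 and 40.3 CPM in the unlabelled libraries (-1.92 ± 0.52, edgeR adjusted p = 0.024, lost in 4 of 9 alternative settings). Set against untreated cells, each drug at OMM or NES called 0 of 40 members by edgeR. In these comparisons a drug effect cannot be told apart from a difference between the 2 sets of libraries. At OMM 4, 2 and 1 members had an unadjusted p under 0.05 in cycloheximide, puromycin and CCCP, DESeq2 called 1 in each, and 1.86%, 0.317% and 0.14% of all genes were called. At NES these were 3, 2 and 1 members, with 2, 0 and 0 by DESeq2, against 0.956%, 0.077% and 0.0815% of all genes. Of all 22078 genes, 3293, 1728 and 2089 had an unadjusted p under 0.05 at OMM and 2695, 1764 and 1692 at NES. DESeq2 called 1301, 104 and 260 genes higher and 299, 265 and 256 lower at OMM. At NES it called 446, 356 and 184 higher and 581, 117 and 134 lower.

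EMC6 and VAPB recurred, and were set together here after their values were seen. They were not alone, since CYB5B was higher in 4 comparisons and lower in 2, and STX17 was higher in 5. Each also had 1 call in the other direction. EMC6 was higher for OMM against NES in cycloheximide, and VAPB was lower in the nuclear fraction. EMC6 was lower in 7 of 43 comparisons, at ERM, NIK and LMA, at NES in each drug and at OMM in CCCP. In CCCP EMC6 had 23.3 and 17.1 CPM in the OMM labelled libraries, against 54.1 and 52.8 CPM in the unlabelled libraries (-1.41 ± 0.37, edgeR adjusted p = 0.0233), and 16.4 and 17.4 CPM in the NES labelled libraries, against 56.1 and 54.4 CPM in the unlabelled libraries (-1.71 ± 0.37, edgeR adjusted p = 0.00486). VAPB was higher in 5 comparisons: ERM, OMM in CCCP, and NES in each of the 3 drugs, where its log2 fold change was 0.99 in cycloheximide, 0.60 in puromycin and 0.84 in CCCP. At NES in CCCP VAPB had 174.3 and 172.8 CPM in the labelled libraries, against 103.2 and 90.2 CPM in the unlabelled libraries (edgeR adjusted p = 0.00405). Its groups did not overlap in any of these comparisons, in which 18.4% (ERM) to 40.4% (NES in puromycin) of all genes lay above without overlap. The calls of EMC6 at NES in cycloheximide and of VAPB there held in all 9 alternative settings. EMC6 lost its call in 5 of 10 settings at ERM, 8 of 9 at NIK, 2 of 9 at LMA, 7 of 9 at OMM in CCCP, 6 of 9 at NES in puromycin and 2 of 9 at NES in CCCP. VAPB lost its call in 5 of 10 settings at ERM, 4 of 9 at OMM in CCCP, 7 of 9 at NES in puromycin and 1 of 9 at NES in CCCP. Over all 43 comparisons 34 members were called at least once, 13 of them in the fractions alone, and STX7, VAMP5, VAMP4, STX18, SEC22B and BAK1 were called in none. The share of all genes called at least once was not computed, and the fractions alone called 62% of all genes tested there. The count of 34 is therefore no result about the members.

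Along the nocodazole course few members were called. Each time was set against the 4 unlabelled libraries of the 3 min and 30 min cells. At OMM 1, 1, 1, 1 and 2 of 39 members were higher after 3, 6, 9 and 30 min and 2 h, against 12.9%, 15.2%, 13.6%, 12.2% and 12.7% of all genes, and the co-translational genes had 35, 38, 30, 24 and 20 of 46 higher. The member called at every time was STX17, a syntaxin of autophagosomes. It had 20.5 and 31.6 CPM at 3 min, 24.6 and 24.4 at 6 min, 20.0 and 33.5 at 9 min, 27.0 and 28.2 at 30 min, and 34.0 and 33.6 at 2 h in the OMM labelled libraries, against 0 and 0.0803 CPM at 3 min and 5.95 and 63.6 CPM at 30 min in the unlabelled libraries. The labelled libraries of STX17 lay between 20.0 and 34.0 CPM, and its unlabelled libraries lay on both sides of them. Its fitted log2 fold changes of 4.22 to 4.69 rest on the low unlabelled libraries, and against the 30 min unlabelled libraries alone, a comparison added after the data were seen, the 30 min value was -0.33 (edgeR adjusted p = 0.996). Of these 4 unlabelled libraries 3 lacked counts for 11.6%, 13.5% and 16.3% of well-expressed genes.

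At NES in nocodazole 0, 1, 0, 0 and 1 members were called, all higher, by edgeR's quasi-likelihood test, against 3.1%, 3.82%, 1.19%, 2.19% and 3.15% of all genes. At the times with 0 called, 5, 2 and 4 members had an unadjusted p under 0.05, and DESeq2 called 4, 0 and 0. Of all 19611 genes, 3001, 2376 and 2802 had an unadjusted p under 0.05 at these times. DESeq2 called 528, 374 and 521 genes higher and 906, 435 and 646 lower. YKT6, the lipid-anchored SNARE, was the member called at 6 min, with 247.3 and 251.1 CPM in the labelled libraries, against 125.4, 132.8, 103.9 and 139.9 CPM in the unlabelled libraries (0.99 ± 0.23, edgeR adjusted p = 0.0126). MCL1 was called at 2 h in both constructs. At OMM MCL1 had 516.3 and 410.7 CPM in the labelled libraries, against 383.8, 367.8, 286.9 and 276.3 CPM in the unlabelled libraries (0.51 ± 0.15, edgeR adjusted p = 0.0309). At NES it had 461.0 and 486.7 CPM in the labelled libraries, against 359.2, 343.6, 306.7 and 197.3 CPM in the unlabelled libraries (0.67 ± 0.15, edgeR adjusted p = 0.0139). For both genes each labelled library lay above each unlabelled one, and the share of all genes with such a separation was not computed for nocodazole. The call of YKT6 was lost without either labelled library (adjusted p = 0.149 and 0.153), and MCL1 lost its call in 4 of 10 alternative settings at OMM and 3 of 10 at NES. Without OMM labelled library 1 of 2 h the log2 fold change of MCL1 was 0.28 (0.493).

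Other genes of the pathway were taken as 3 lists, whose counts with a library left out were not computed. Of all genes, 5.26% were higher and 7.6% lower at ERM, 3% and 1.98% at OMM, and 34.2% and 27.8% in the nuclear fraction. Over genes of at least 5 CPM these shares were 10.1% and 13.8% at ERM, 5.73% and 3.8% at OMM, and 24.6% and 39% in the nuclear fraction. Of 25 further tail-anchored proteins, mostly of the ER translocon, mitochondria and peroxisomes, 24 were tested, and 2 were higher and 7 lower at ERM with a median of -0.57. SEC61B, the tail-anchored subunit of the translocon, had a log2 fold change of -1.996 ± 0.295 (edgeR adjusted p = 5.08e-06), and TOMM5 and TOMM7, small subunits of the mitochondrial import pore, had -2.26 and -3.35. In the nuclear fraction 3 were higher and 16 lower with a median of -0.71. Of 16 soluble partners of the SNAREs, 3 were lower at ERM and none higher by edgeR, among them SCFD1 at -1.27 and VPS45 at -1.01, which act on Golgi syntaxins. In the nuclear fraction 2 of these were higher and 9 lower with a median of -0.80, including SNAP23 at -1.80 and SNAP29 at -1.50, which supply helices to SNARE bundles.

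The machinery that inserts tail anchors divided at ERM, with 2 of 16 higher, 4 lower and a median of -0.40. EMC1 and EMC10, subunits of the ER membrane complex that are themselves made with signal peptides, were higher at 1.35 and 0.96. GET1 at -1.45 and CAMLG at -1.17, the ER receptor of the GET pathway, and GET3 at -0.91, its targeting ATPase, were lower, as was EMC2 at -1.52. At OMM 3 of the 16 were higher, EMC10 at 1.59, EMC1 at 1.34 and SGTA at 0.90, and none was lower by edgeR. In the nuclear fraction 4 were higher and 6 lower, with EMC1 at 1.96 and EMC7 at 1.66 on one side and SGTA at -1.45 and UBL4A at -1.23, which hand tail anchors over in the cytosol, on the other.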

How the data were processed

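The authors deposited tables of raw counts per gene, made with Trimmomatic, STAR and HTSeq on GRCh38, per the submitters' processing notes, which give no versions. The authors' deposited tables of log2 fold changes with p-values from DESeq2 were not used, because their headers do not say whether the p-values are adjusted. The 97 libraries fall into groups of 2, and 1 technical repeat of a MITO library was left out. Counts were tested here in edgeR 4.0.16 (R 4.3.3, limma 3.58.1) with TMM scaling, filterByExpr, 1 mean per group in each table and the quasi-likelihood F test, and p-values were adjusted by Benjamini-Hochberg over all genes. Standard errors are the log2 fold change divided by the square root of F, and CPM is scaled by each library's total count on genes times its TMM factor, while shares are of the total count. Nocodazole libraries were set against the mean of the 3 min and 30 min unlabelled groups, and drug effects on labelling are differences of log2 fold changes. The code was tested on simulated data. Each result was recomputed with a replicate block, with each library left out, without the filter, with RLE scaling and with DESeq2 1.42.0. Apart from nocodazole and the fractions, results were also fitted with the libraries of that comparison alone, and ERM, OMM and NES with all 9 constructs' unlabelled libraries as control. Added after seeing the data were same-time controls for nocodazole, crossed MITO numbers, and leave-one-out counts for the co-translational genes and for the 6 constructs other than ERM, OMM and NES. Named members were the called ones with the largest change, up to 6 in each direction (up to 4 for drugs), at a mean of at least 5 CPM. The members and the lists were chosen with earlier results of these data known. Depth limits low genes, and intervals of counting error are not given because PCR reads are not independent molecules. Figures used Python 3.11.15 and matplotlib 3.10.9.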

Additional observations from a re-analysis of the deposited data

Results flagged for a closer look

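In 9 results the effect of labelling on a member differed between constructs or drugs by a test of the difference itself. For VAMP8 the log2 fold change at ERM differed from that at NES by -11.85 ± 2.99 (SE, edgeR adjusted p = 0.0162) and from that at OMM by -11.92 ± 2.99 (0.0276). The first call was lost in 3 of 13 alternative settings and the second in 7 of 13. These are fitted values from counts of 0 in both ERM labelled libraries and are no bound on the fold. For CYB5A cycloheximide differed from puromycin at OMM by 2.78 ± 0.72 (edgeR adjusted p = 0.027), and in cycloheximide OMM differed from NES by 2.53 ± 0.72 (0.0237), calls lost in 7 and 6 of 13 settings. In cycloheximide OMM also differed from NES by 2.98 ± 0.48 for STX10, by 2.22 ± 0.52 for EMC6, by -1.49 ± 0.47 for STX3, by -1.17 ± 0.36 for STX16 and by -1.11 ± 0.36 for BCL2L13. STX10 kept its call under all 13 alternative settings and EMC6 under 12 of 13, while STX3 lost its call in 10, STX16 in 8 and BCL2L13 in 10 of 13, all 3 of them without unlabelled library 2 of OMM in cycloheximide. For STX10 the OMM labelled libraries in cycloheximide had 39.8 and 33.6 CPM, against 12.7 and 17.3 CPM in the unlabelled libraries, and the NES labelled libraries had 19.5 and 18.7 CPM, against 52.1 and 71.5 CPM in the unlabelled libraries. Its difference thus rests on opposite changes in the 2 constructs, and the unlabelled libraries differed between them as well.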

How the results depend on the processing

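Of 87 called member results 27 kept their call and direction under every setting tried, 59 lost the call under at least 1, and 1 reversed: STX17 at OMM after 30 min of nocodazole, at -0.33 with same-time controls. The cause was not tested for any change below, and the numbers are counts of members called. With RLE size factors they were 0 at NIK, 4 at LMA, 1 at NES in puromycin and 1 at OMM after 2 h of nocodazole. Without the filter they were 0 at OMM, NES and NIK, 1 in MITO total RNA, at OMM in CCCP and at NES in puromycin, 3 at OMM after 6, 9 and 30 min of nocodazole, and 1, 2, 1 and 1 at NES after 3, 6, 9 and 30 min. With the replicate block, whose numbers do not pair the samples (correlations of same-numbered deviations from -0.18 to 0.15), they were 0 at OMM, NES and NIK, 5 at LMA, 1 at OMM in CCCP, 0 at NES in puromycin, 3 for OMM against NES in cycloheximide and 1 at NES after 3 min of nocodazole, and with the MITO numbers crossed 0 at MITO. DESeq2 gave 5 at NES, 1 at MITO, 3 at NIK, 7 at LMA, 2 for ERM against OMM, 1 in MITO total RNA, 4 at OMM in puromycin, 8 and 5 at NES in puromycin and CCCP, 2 for cycloheximide against puromycin at NES, 2, 3, 4, 4 and 6 along the OMM nocodazole times, 4 and 3 at NES after 3 and 6 min, and, against untreated cells, 1 for each drug at OMM and 2 for cycloheximide at NES. With only the libraries of a comparison they were 2 at ERM, 0 at OMM, NES and NIK, 10 at NLS, 8 at LMA, 0 for ERM against NES, 0, 9 and 0 at OMM in cycloheximide, puromycin and CCCP, 4 at NES in puromycin, 0 for cycloheximide against puromycin at OMM and 1 for OMM against NES in cycloheximide. With the unlabelled libraries of all 9 constructs they were 2 at OMM and 4 at NES, and with same-time controls 3 and 0 at OMM after 3 and 30 min of nocodazole. With 1 library left out the count ran from 1 to 8 at ERM, 0 to 3 at OMM, 0 to 5 at NES, 0 to 3 for ERM against NES, 0 to 4 for ERM against OMM, 0 to 1 for OMM against NES and 0 to 1 in MITO total RNA. It ran from 0 to 2 at NLS, MITO and NucPore, 0 to 4 at NIK and 0 to 3 at LMA, and stayed at 0 at KDEL. It ran from 4 to 14, 0 to 0 and 0 to 2 at OMM in cycloheximide, puromycin and CCCP, 5 to 9, 0 to 5 and 1 to 2 at NES in the same drugs, 0 to 9 for cycloheximide against puromycin at OMM, and 2 to 13 for OMM against NES in cycloheximide. Along the nocodazole times it ran from 1 to 8, 1 to 10, 1 to 10, 1 to 9 and 1 to 13 at OMM and from 0 to 8, 0 to 9, 0 to 7, 0 to 8 and 0 to 7 at NES. Against untreated cells it ran from 0 to 6 for cycloheximide at OMM, 0 to 3 for cycloheximide at NES, and 0 to 1 for puromycin and for CCCP at NES. It ran from 20 to 30 in the fractions. In all genes, RLE moved the calls at OMM in puromycin to 124 higher and 303 lower, from 202 and 254 with TMM, and those of puromycin against untreated cells at OMM to 11 and 77, from 17 and 53. With only the libraries of a comparison the calls in all genes moved too. They were 3285 higher and 1503 lower at NLS, from 631 and 548, and 3054 and 1363 at LMA, from 833 and 908. At OMM in puromycin they were 1044 and 1157, and at NES and NIK 0. At ERM they were 867 and 990, from 1193 and 1724, and at OMM in cycloheximide 1439 and 255, from 2652 and 1148. Calls in all genes under the remaining settings are not given here.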
